A study of Trichoderma atroviride IMI 206040 with 36 samples.

Results

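In the Δblr-2 strain of Trichoderma atroviride, 39 of the 11863 transcripts were lower 30 min after a pulse of blue light than in darkness. Their WT light and dark means differed by less than 0.4 on the log2 scale. These transcripts were chosen by their read counts in these same libraries. CPM, the counts of a transcript per 1000000 counts of its library, were taken with 0.5 added. A transcript was kept when its lowest Δblr-2 dark value was at least 1.7 times its highest Δblr-2 light value and its mean in Δblr-2 darkness was at least 5. It also had to have a WT light mean within 0.4 of the dark mean on the log2 scale, and a highest WT library at most 2.5 times the lowest. Of the 7995 transcripts with the required dark level, 70 met the first condition, and 31 of these were left out for what they did in the WT. The WT and Δblr-2 values of the 39 genes are therefore a description and carry no test. The Δblr-1 and Δenv-1 libraries had no part in the choice and were used for the tests.

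T. atroviride is a soil fungus that attacks other fungi and forms conidia, its asexual spores, after blue light. BLR-1 and BLR-2 are its homologues of the Neurospora crassa White Collar proteins. In N. crassa the first of these binds a flavin and senses blue light, the second is its partner, and together they act as a transcription factor. ENVOY, the product of env-1, is a small LOV domain protein related to VIVID, which in N. crassa dims the light response. None of the 39 genes carries a product name in the sources used here, so they are given by their Id. and no role is assigned to them.

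The groups were the WT (IMI 206040), Δblr-1, Δblr-2 and Δenv-1, each grown for 36 h on potato dextrose agar, either kept in darkness or collected after 200 μmol per m2 of blue light, with 3 libraries per group described as biological replicates. The methods describe Δenv-1 as a replacement of the env-1 reading frame by a hygromycin resistance gene, and how Δblr-2 was made is not given in the sources used here. The libraries held from 1519260 to 22011847 counts, so 3 counts correspond to between 0.136 and 1.97 CPM. In Δenv-1 darkness, replicate 3, which the study's design text excludes, and replicate 1 stood apart: 50 transcripts held 40.5% and 26.9% of their counts, against 14.9% to 18.6% in the other libraries. Replicate 3 was left out of the fits and of the means below, so Δenv-1 darkness has n = 2. The Ids of blr-1 and blr-2 are not given in the sources used here, so the deletions were not checked by the deleted gene. The transcript of env-1 (Id. 150699) was not low in the libraries labelled Δenv-1, with 28.9, 33.5 and 29.7 CPM in darkness and 264, 240 and 296 CPM after light. In the WT it had between 1.74 and 2.10 CPM in darkness and between 106 and 112 CPM after light. Reads from outside the replaced frame count towards this transcript too, so the value does not check the label.

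In Δblr-2 the 39 genes kept a median of 43.2% of their dark level after light, from 15.7% in Id. 282604 to 52.0%. On the log2 scale the median light to dark ratio of mean CPM was -1.16, against -0.06 over the 7995 transcripts. The light libraries of Δblr-2 did not have the same level. The median gene kept 37.1% of the dark mean in replicate 1, 44.4% in replicate 3 and 48.6% in replicate 2. Replicate 2 was the highest light library for 30 of the 39 genes, compared with 36.6% of the 7995 transcripts, and so it set the ratio for most of them. Without this library the same rule found 100 genes, including all 39. Leaving out a Δblr-2 light library can only lower the highest light value, so all 39 were bound to be kept. In 30 of the 39 genes the 3 Δblr-2 light libraries lay below all 21 other libraries, which was the case for 4.20% of the 7995 transcripts. The other 9 were Id. 44123, Id. 137467, Id. 302422, Id. 299717, Id. 302231, Id. 47911, Id. 300226, Id. 295128 and Id. 176663. Both the rule and this count use the Δblr-2 light values, so the count says where the level lay and no more.

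**Figure D1:**
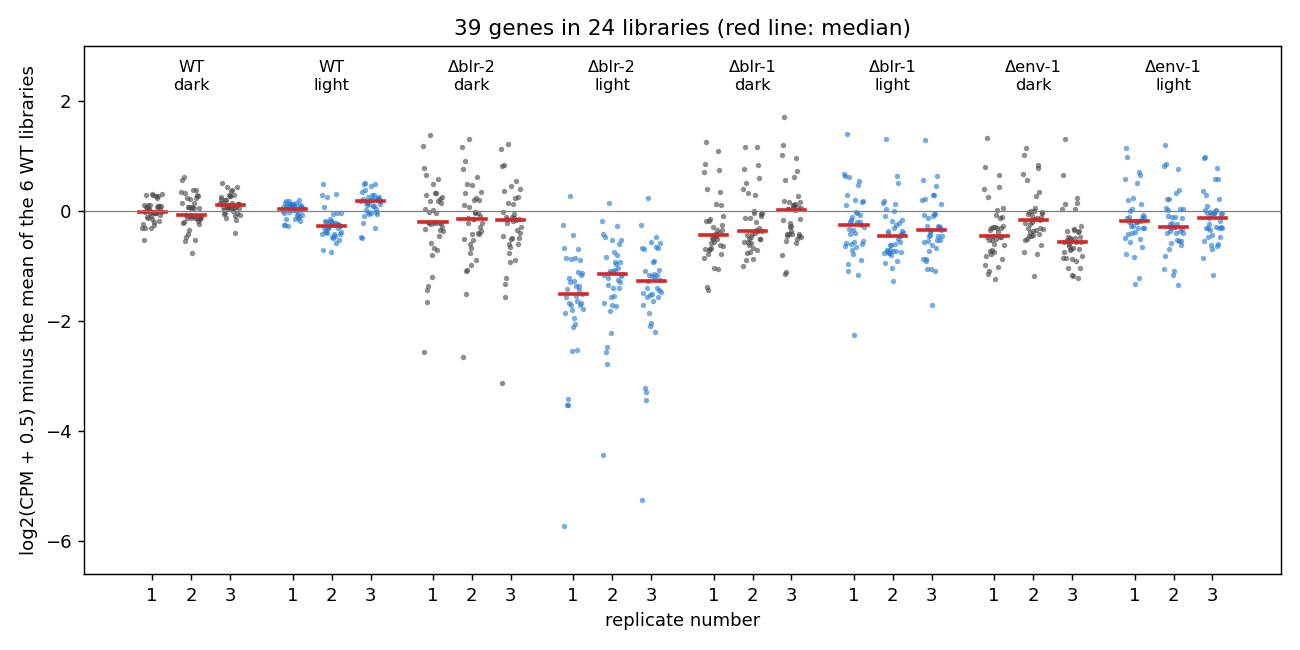
Each point is one of the 39 genes in one library, as log2 of CPM with 0.5 added minus the mean of the 6 WT libraries on that scale. Groups are named above the points, the horizontal axis gives the replicate number, dark libraries are grey and light libraries blue, and red lines are medians. The medians of the 3 Δblr-2 light libraries are -1.50, -1.15 and -1.28, and those of the other 21 libraries lie between -0.56 and 0.17.

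The largest separation was in Id. 44123. Its level was 177, 174 and 170 CPM in Δblr-2 darkness and 64.9, 67.9 and 64.4 CPM after light, a mean of 174 ± 3.71 against 65.7 ± 1.90 CPM (SD, n = 3 each). The lowest dark library was 2.49 times the highest light library. In the WT the gene had 82.1 ± 18.5 CPM in darkness and 75.9 ± 19.5 CPM after light (SD, n = 3 each), so the Δblr-2 dark libraries were the ones out of the WT range and the light libraries lay within it.

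Id. 282604 showed the opposite arrangement and the deepest fall. It had 9.17, 8.58 and 6.04 CPM in Δblr-2 darkness and 0.584, 2.16 and 0.995 CPM after light. The WT had between 42.2 and 67.8 CPM, with no overlap with any Δblr-2 library. In Δblr-1 and Δenv-1 it lay in between, at 30.4 ± 2.2 CPM (SD, n = 3) in Δblr-1 darkness and 31.0 ± 3.76 CPM (SD, n = 2) in Δenv-1 darkness. The light value of replicate 1 was just above the 0.438 CPM that 3 counts give in that library, so the size of the fall is poorly known.

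The next genes by separation had dark to light ratios of mean CPM between 2.49 and 3.44. Id. 137467 had 93.4, 92.7 and 96.0 CPM in darkness and 33.9, 40.4 and 33.8 CPM after light. Id. 88508 fell from a dark level of 64.2, 56.5 and 58.8 CPM to 21.9, 25.0 and 24.3 CPM. Id. 152183 had 17.1, 20.4 and 19.4 CPM before and 5.7, 7.5 and 6.4 CPM after the pulse. In all 3 genes the 3 light libraries were close to each other, with SDs of 3.76, 1.60 and 0.932 CPM.

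Id. 302419 and Id. 291825 were already low in Δblr-2 darkness. Id. 302419 had 344, 437 and 369 CPM in Δblr-2 darkness and 80.8, 158 and 99.1 CPM after light, while the WT had between 634 and 1312 CPM. Id. 291825 had 40.9, 45.5 and 43.6 CPM and then 10.8, 18.5 and 11.7 CPM, with 94.0 to 185 CPM in the WT. In both genes replicate 2 was the highest light library by a wide margin, and no Δblr-2 library reached the WT range.

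The genes with the most counts in Δblr-2 darkness have less relative counting error, and their fall after light was likewise required by the rule. CPM are not divided by transcript length, so levels are not compared between genes here. Id. 299629 had 1554, 1901 and 1735 CPM in darkness and 375, 723 and 409 CPM after light. Id. 302685 had 1381, 1417 and 1448 CPM and then 420, 631 and 530 CPM. Id. 301733 had 1288, 1426 and 1360 CPM and then 486, 752 and 603 CPM. In these 3 genes light replicate 1 was the lowest and replicate 2 the highest, and every light library was below every WT library. Id. 300906 had 281, 293 and 270 CPM in darkness, within the WT range of 221 to 315 CPM, and 92.2, 120 and 96.2 CPM after light. The remaining genes of this level were Id. 300226, with 234 ± 15.1 CPM in darkness and 111 ± 15.3 CPM after light, Id. 137475, with 229 ± 6.12 and 110 ± 15.8 CPM, and Id. 302069, with 205 ± 20.4 and 93.5 ± 12.6 CPM (SD, n = 3 each).

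The 39 genes reached their Δblr-2 light level from 3 different starting points in darkness. In 20 genes the Δblr-2 dark libraries overlapped the WT libraries. In 12 genes all Δblr-2 dark libraries were below all 6 WT libraries, which held for 5.88% of the 7995 transcripts, and in 7 genes all were above, which held for 12.3%. The median light to dark ratio in Δblr-2 was -1.14, -1.2 and -1.09 on the log2 scale in these 3 sets. After light, all Δblr-2 libraries lay below all WT libraries in 36 genes, compared with 21.1% of the 7995 transcripts, and the 3 genes that overlapped the WT were Id. 44123, Id. 137467 and Id. 302422. In Id. 302422 the dark level of Δblr-2, at 69.6, 66.6 and 62.1 CPM, stood above the 21.2 to 29.5 CPM of the WT, and its light level of 32, 29.3 and 31.1 CPM was at and just above the upper end of the WT range. This gene was named for its pattern after its values were seen.

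**Figure D2:**
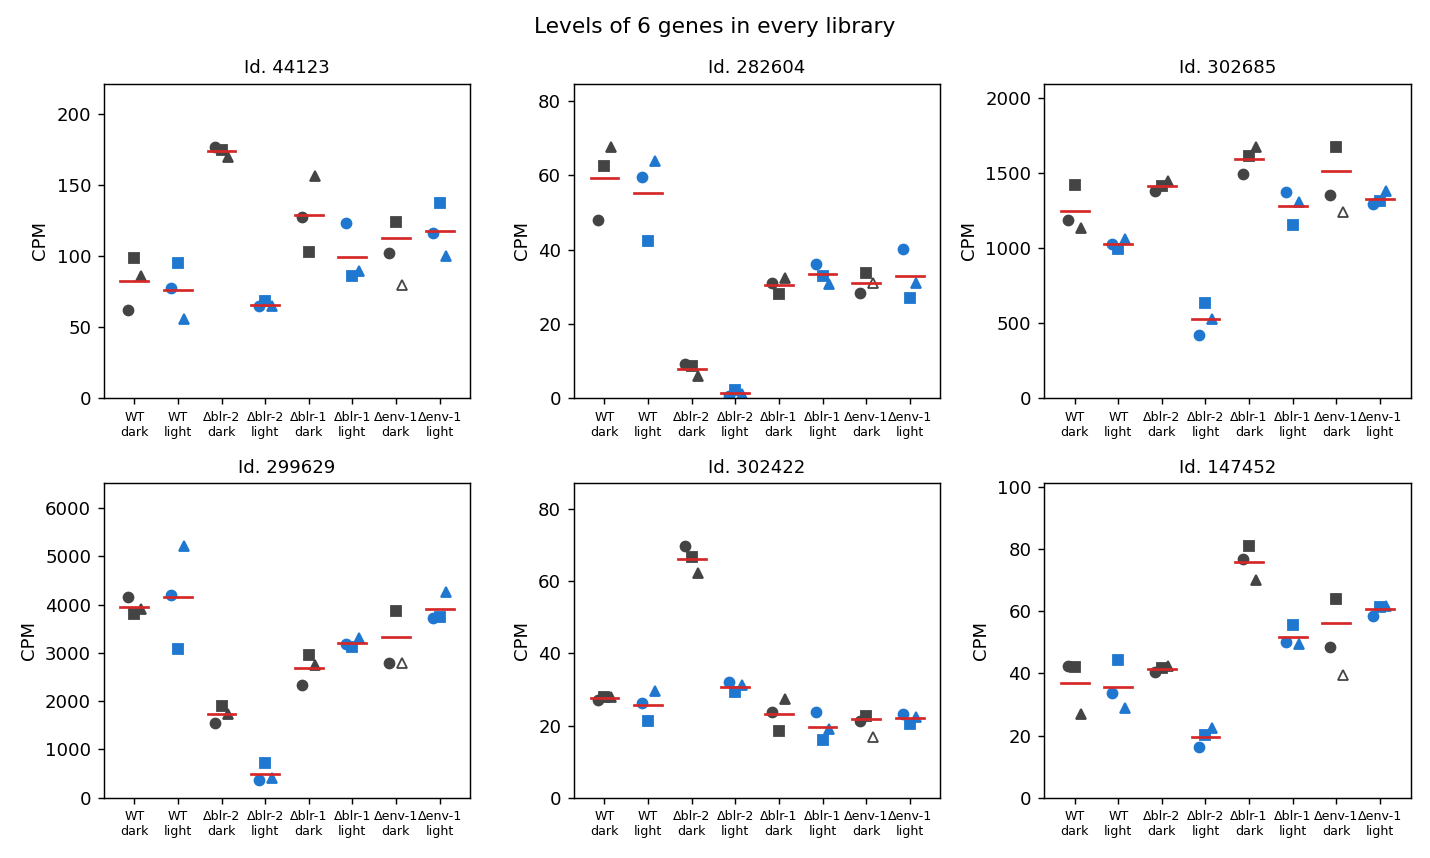
CPM of 6 of the genes in every library, on axes that start at 0. Dark libraries are grey and light libraries blue, and circles, squares and triangles are replicates 1, 2 and 3. Red lines are group means, which leave out Δenv-1 dark replicate 3 (open triangle). The Δblr-2 light points are below the Δblr-2 dark points in each panel, as the rule requires, and start from above the WT points in Id. 44123 and Id. 302422 and from below them in Id. 282604 and Id. 299629.

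The limits of the rule cut through a continuum. The last gene inside the ratio limit was Id. 301733 at 1.71, and the first outside was Id. 297460, at 1.699, with 352, 362 and 360 CPM in Δblr-2 darkness and 159, 207 and 199 CPM after light. The lowest dark mean inside was that of Id. 302231, 7.16 with the added 0.5, and the highest outside was 4.33 in Id. 77489. Id. 295125 was the last inside the WT limit with a WT log2 ratio of -0.34, and Id. 216002 the first outside with -0.42. Of the genes left out for the WT, 23 were lower and 1 was higher in WT light beyond the limit, and 7 only varied too widely among the WT libraries. The reverse pattern, with the WT held to the same limits, was met by 205 transcripts, which were higher after light in Δblr-2.

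Whether the light pulse lowered the same genes in a strain that lacks BLR-1 was tested with edgeR's quasi-likelihood test on the 11 Δblr-1 and Δenv-1 libraries. All 39 genes passed the filter on low counts. None of them was called after light in Δblr-1, where a call needs a change of 2-fold or more beside an adjusted p no higher than 0.05, and 0.288% of the 9378 genes tested were called. DESeq2 and edgeR's likelihood ratio test called none of the 39 either. The fitted log2 fold changes of the 39 genes ran from -0.78 to 0.31 with a median of -0.10, against -0.01 over all genes tested, and 29 of the 39 were below 0. Without Δblr-1 light replicate 2 the lowest value was -1.26, and without Δblr-1 dark replicate 2 the highest was 0.46. An unadjusted p under 0.05 was reached by 15 of the 39, compared with 15.4% of all genes tested.

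Smaller falls did occur in Δblr-1. With no minimum on the fold change, 5 of the 39 genes fell and none rose at an adjusted p of at most 0.05, while 1.11% of all genes tested fell and 1.02% rose. The count was 3 without Δblr-1 dark replicate 2, dark replicate 3 or light replicate 3, 2 without Δblr-1 light replicate 2 and 1 in the fit of 23 libraries, which adds those of the WT and Δblr-2. DESeq2 called 6, of which 1 rose, and it called 251 of all genes tested, against 200 in the main fit. These 5, named here after their values were seen, were Id. 145570, Id. 35776, Id. 147452, Id. 137467 and Id. 302685. Smaller falls than 2-fold thus passed the test in Δblr-1, and that no member was called at 2-fold does not show that none fell that far. In Id. 302231, one of the genes with few counts, Δblr-1 had 3.72, 4.25 and 6.05 CPM in darkness and 1.32, 3.11 and 2.18 CPM after light, without overlap. Its fitted change was the lowest of the 39, at -0.78 (SE 0.268, edgeR adjusted p = 0.162), and it was -1.26 without Δblr-1 light replicate 2 (edgeR adjusted p = 0.156). In Δblr-2 itself 4 of the 39, Id. 145570, Id. 295128, Id. 268723 and Id. 299717, had dark to light ratios of mean CPM between 1.92 and 1.97, and they too were named after their values were seen. Strains lacking cry-1 or cry-DASH were not analysed here.

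Id. 145570 had 310, 371 and 292 CPM in Δblr-1 darkness and 232, 210 and 178 CPM after light, with no overlap. It fell by 0.66 on the log2 scale (SE 0.113, edgeR adjusted p = 0.00842), and its adjusted p stayed at or under 0.0413 in every alternative fit. Id. 35776 had 40.9, 37.5 and 41.4 CPM and then 29.0, 24.2 and 23.7 CPM. It fell by 0.66 (SE 0.115, edgeR adjusted p = 0.00842), and without Δblr-1 light replicate 2 or in a fit of 23 libraries it no longer passed, with an adjusted p of up to 0.0969.

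Id. 147452 had 76.9, 80.9 and 70.0 CPM in Δblr-1 darkness and 50, 55.4 and 49.4 CPM after light, and fell by 0.52 on the log2 scale (SE 0.0905, edgeR adjusted p = 0.00842). It did not pass without Δblr-1 dark replicate 2 or in the fit of 23 libraries, with an adjusted p of up to 0.111. The falls of Id. 137467, by 0.52 (SE 0.122, edgeR adjusted p = 0.0413), and of Id. 302685, by 0.31 (SE 0.0678, edgeR adjusted p = 0.0287), each lost the call when either of Δblr-1 dark replicate 3, light replicate 2 or light replicate 3 was left out, among other libraries, with an adjusted p of up to 0.366 and 0.177. In all 5 genes the light libraries of Δblr-1 lay below its dark libraries. Over the 39 genes this was so in 9, compared with 11.3% of the 7995 transcripts, and the light libraries lay above the dark ones in 1, Id. 299629, compared with 7.34%.

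**Figure D3:**
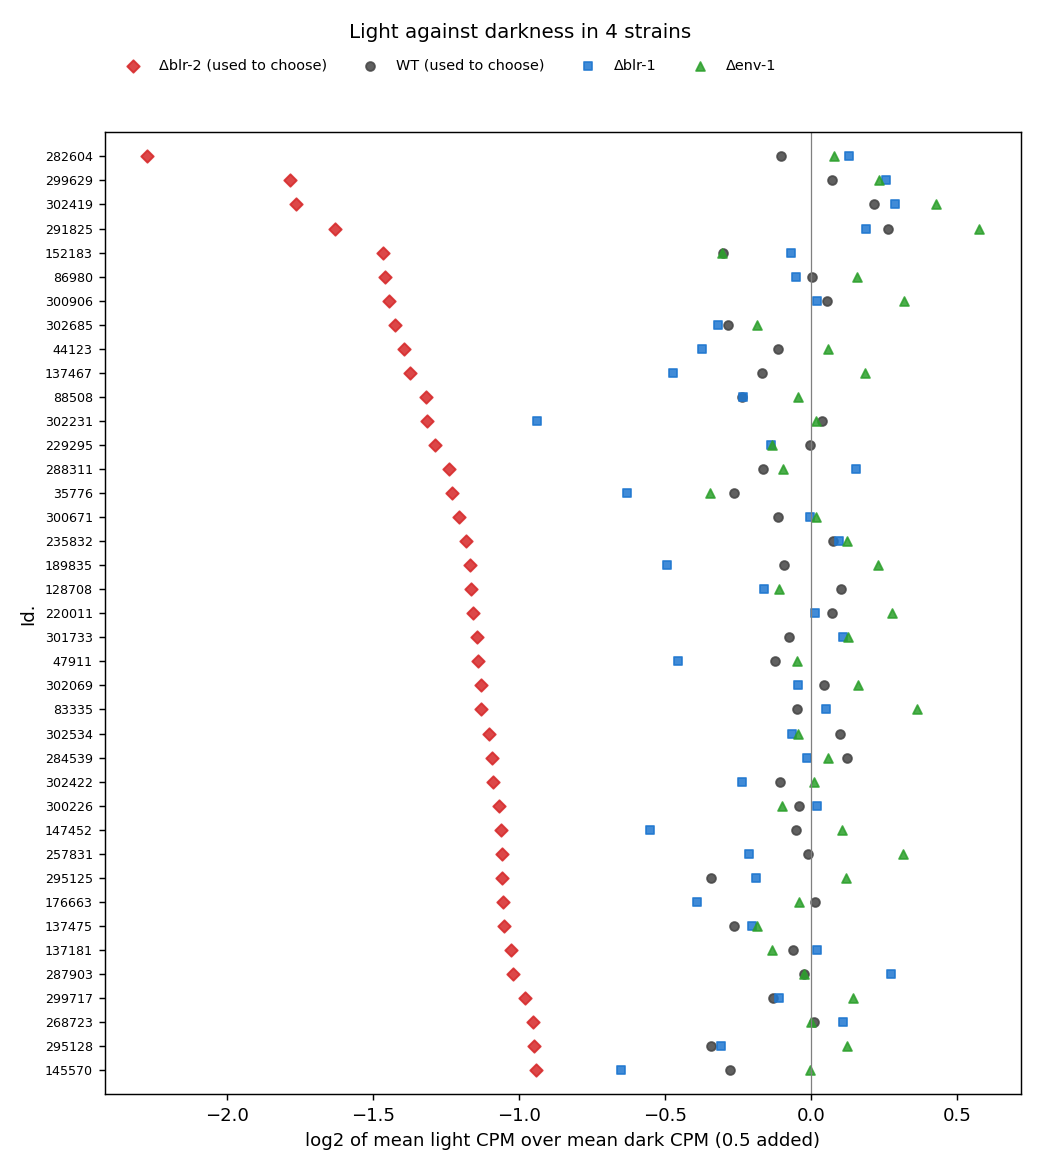
Log2 of mean light CPM over mean dark CPM, with 0.5 added, for each of the 39 genes in 4 strains, ordered by the value in Δblr-2. Red diamonds (Δblr-2) run from -2.27 to -0.94 and grey circles (WT) from -0.34 to 0.26, as the rule fixed, while blue squares (Δblr-1) run from -0.94 to 0.29 and green triangles (Δenv-1) from -0.35 to 0.57.

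In Δenv-1, which keeps both BLR proteins, no member was called after light by edgeR at the 2-fold limit, against 1.35% of the genes tested, and DESeq2 and the likelihood ratio test called none. An unadjusted p under 0.05 was reached by 7 of the 39, compared with 19.9% of all genes tested. The fitted log2 fold changes ran from -0.46 to 0.49 with a median of -0.04. The highest, that of Id. 291825, was 0.84 without Δenv-1 dark replicate 2 and 0.26 without dark replicate 1, and with dark replicate 3 included the highest of the 39 was 0.23. With no fold minimum, 3 genes fell and none rose, while 2.90% of all genes tested fell and 3.23% rose. With the replicate number as a block 3 fell and 2 rose, and without Δenv-1 dark replicate 2 none fell and 2 rose. In the fit of 23 libraries and without Δenv-1 light replicate 2 the count was 0, and without Δenv-1 dark replicate 1, light replicate 1 or light replicate 3 it was 1. The 3 genes, named after their values were seen, were Id. 35776, with 29.6 and 39 CPM in darkness and 27.8, 22.2 and 30.6 CPM after light, Id. 137475 and Id. 302685. They fell by 0.46 (SE 0.115, edgeR adjusted p = 0.0275), 0.28 (SE 0.0719, edgeR adjusted p = 0.0301) and 0.27 (SE 0.0747, edgeR adjusted p = 0.0438). Only Id. 137475 had Δenv-1 light libraries all below the dark ones. In the WT, Id. 302685 had 1189, 1420 and 1137 CPM in darkness and 1025, 993 and 1059 CPM after light. These WT groups did not overlap, with a log2 ratio of means of -0.28, while those of Id. 35776 and Id. 137475 overlapped. Each of the 3 calls was lost when Δenv-1 dark replicate 2, light replicate 2 or some other single library was left out, with an adjusted p of up to 0.245, 0.257 and 0.251, and that of Id. 302685 was also lost with the replicate number as a block.

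In unscaled CPM, the light libraries of Δenv-1 lay above its dark libraries in 7 of the 39 genes, compared with 25.5% of the 7995 transcripts, and below them in 4, compared with 7.35%. With dark replicate 3 included, the count below was 1, compared with 1.08%. The scaling factor of Δenv-1 dark replicate 1 was 0.892, that of replicate 3 was 0.747, and those of the other libraries were between 0.977 and 1.05. The part of these factors in the counts was not tested.

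The light responses of Δenv-1 and Δblr-1 were compared directly by an interaction term. It passed in 1 of the 39 genes, Id. 147452, while 2.21% of all genes tested passed. The response of this gene was 0.54 higher in Δenv-1 than in Δblr-1 on the log2 scale (SE 0.130, edgeR adjusted p = 0.0472). In Δenv-1 it had 48.6 and 64.1 CPM in darkness and 58.6, 61.3 and 61.8 CPM after light, so the groups overlapped there, in contrast to Δblr-1. With the replicate number as a block within strains 3 genes passed, Id. 137467, Id. 147452 and Id. 145570, at edgeR adjusted p of 0.00676, 0.0216 and 0.0483. DESeq2 and the likelihood ratio test also gave 3. Over all 9378 genes tested, 207 passed in the main fit, 232 with the block, 252 by DESeq2 and 340 by the likelihood ratio test. With RLE scaling no member passed, and none passed when any one of 8 of the 11 libraries was left out, all except Δblr-1 dark replicate 3, Δblr-1 light replicate 2 and Δenv-1 dark replicate 2. The adjusted p of Id. 147452 lay between 0.0105 and 0.333 over its alternatives.

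**Figure D4:**
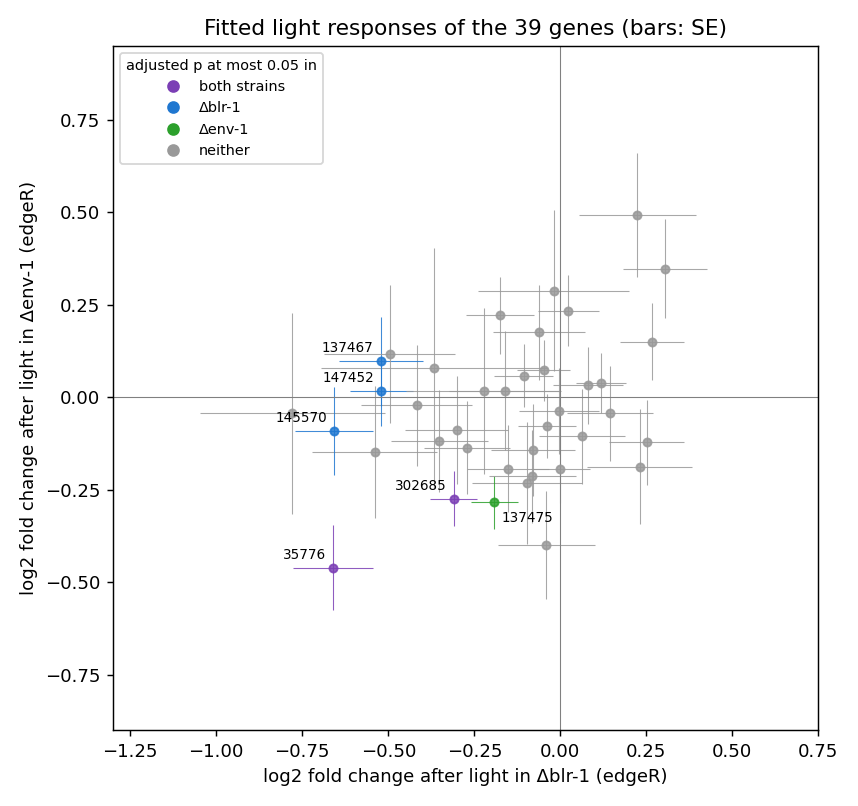
Fitted log2 fold change after light in Δblr-1 (horizontal) and Δenv-1 (vertical) of the 39 genes, with bars of 1 SE. The 6 labelled genes had an adjusted p of at most 0.05 in one or both strains. All 39 points lie within 1 of 0 on both axes, with Id. 35776 and Id. 302685 below 0 in both strains.

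Between the 2 mutants in darkness, none of the 39 genes differed by edgeR at an adjusted p of at most 0.05, while 0.235% of all genes tested did. An unadjusted p under 0.05 was reached by 5 of the 39, compared with 8.5% of all genes tested. DESeq2 called 1, Id. 299629, and the likelihood ratio test 0. Over all genes tested these called 82 and 113, against 22 in the main fit. With Δenv-1 dark replicate 3 included, 2 members differed, Id. 147452 and Id. 299629, and 94 of the 9329 genes tested did. After light, 4 of the 39 genes were higher in Δenv-1 and none was lower, while 4.60% of all genes tested were higher and 5.77% were lower. With the replicate block 4 members again passed, and 1.48% of all genes tested were higher. The largest difference was in Id. 291825, with 61.2, 78.8 and 69.4 CPM in Δblr-1 and 113, 132 and 127 CPM in Δenv-1, a log2 difference of 0.75 (SE 0.162, edgeR adjusted p = 0.00793). Id. 137467 had 84.9, 61.7 and 81.2 CPM in Δblr-1 and 121, 126 and 106 CPM in Δenv-1, a log2 difference of 0.68 (SE 0.120, edgeR adjusted p = 0.0019). In both genes every Δenv-1 light library was above every Δblr-1 light library, and in the fit of 23 libraries Id. 137467 did not pass (edgeR adjusted p = 0.0755). The other 2 were Id. 220011, with a log2 difference of 0.48 (SE 0.128, edgeR adjusted p = 0.0285), and Id. 302419, with 0.44 (SE 0.121, edgeR adjusted p = 0.0335). Both lost the call when Δblr-1 light replicate 3, Δenv-1 light replicate 1 or Δenv-1 light replicate 2 was left out, with an adjusted p of up to 0.26 and 0.277. Id. 220011 also lost it with the replicate block, and Id. 302419 with DESeq2, in the fit of 23 libraries and with Δenv-1 dark replicate 3 included. These 4 were named after their values were seen. The number of members that passed was 2 without Δblr-1 light replicate 3, Δenv-1 light replicate 1 or Δenv-1 light replicate 2, and 8 without Δblr-1 dark replicate 3, of which 1 was lower in Δenv-1. Over all genes tested the numbers in these fits were 735, 682, 602 and 1021, against 972 in the main fit.

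Set beside the WT, the dark levels of the 3 mutants spread in both directions, and the WT values had been held within limits by the rule. In Δblr-1 darkness 11 genes lay below all WT libraries and 6 above, compared with 7.19% and 9.53% of the 7995 transcripts. After light the counts in Δblr-1 were 13 below and 3 above, compared with 8.77% and 8.23%. In Δenv-1 darkness 9 lay below and 5 above, compared with 10.1% and 3.86%, and after light 8 and 5, compared with 7.33% and 9.81%. Of the 7 genes that stood above the WT in Δblr-2 darkness, 4 also stood above it in Δblr-1 and Δenv-1 darkness, namely Id. 44123, Id. 137467, Id. 137475 and Id. 152183. Over the 987 transcripts above the WT in Δblr-2 darkness this share was 8.61%. Id. 299717 was the reverse, with 128, 127 and 125 CPM in Δblr-2 darkness, above the 79.7 to 111 CPM of the WT, and 61.7, 57.1 and 70.2 CPM in Δblr-1 darkness, below it. After light Δblr-2 had 67.4, 62.8 and 61.4 CPM of this transcript and Δblr-1 had 61.2, 54.6 and 59.4 CPM, so the Δblr-2 light libraries were still above those of Δblr-1, by a small margin. Of the 12 that stood below it, 4 were also below it in both other mutants, Id. 282604, Id. 229295, Id. 284539 and Id. 220011, compared with 21.7% of the 470 transcripts below it. The mutants share the WT libraries as their reference here, and these 9 genes were named after their values were seen.

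Against Δblr-1 the place of the Δblr-2 libraries changed between darkness and light. In darkness all Δblr-2 libraries were below all Δblr-1 libraries in 13 genes and above in 8, and the median log2 ratio of Δblr-2 to Δblr-1 was -0.06. After light they were below in 33 genes and above in 2, with a median log2 ratio of -1.10. Over the 7995 transcripts the shares below were 16.9% in darkness and 27.0% after light, and the shares above were 22.8% and 26.8%. The Δblr-2 light values belong to the rule, so this is again a description.

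Other genes of the light pathway are given for comparison. The clock gene frq (Id. 131340) had 58.0, 53.2 and 58.4 CPM in Δblr-2 darkness and 58.4, 45.3 and 45.9 CPM after light, and the photolyase gene phr-1 (Id. 302457) had 341 ± 37.3 and 362 ± 12.9 CPM (SD, n = 3 each). In the WT these genes reached 297 ± 20.0 and 939 ± 39.7 CPM after light (SD, n = 3 each), from 62.0 ± 4.52 and 373 ± 11.7 CPM. The light response of Δblr-2 was not absent, since blu-1 (Id. 300570), an orthologue of the N. crassa glucose-repressible gene grg-1, had 6.26, 3.05 and 4.05 CPM in darkness and 144, 77.2 and 66.7 CPM after light. In Δblr-1 the same gene had 3.26 ± 0.672 CPM in darkness and 5.80 ± 1.94 CPM after light (SD, n = 3 each). In Δblr-2 the light and dark libraries of blu-1 did not overlap. The same held for the photolyase gene cry-1 (Id. 86846), with 14.2 ± 1.47 CPM in darkness and 27.6 ± 1.86 CPM after light. It also held for the MAP kinase gene tmk-3 (Id. 301235), with 203 ± 9.57 and 336 ± 47.7 CPM. The dehydrogenase gene bld-2 (Id. 301399) fell without overlap, from 2258 ± 216 to 1506 ± 196 CPM (SD, n = 3 each). The Δblr-2 groups overlapped for env-1, frq, phr-1 and the cryptochrome gene cry-DASH (Id. 285589).

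Markers of conidiation were low in all Δblr-2 libraries, as they were in Δblr-1 and in Δenv-1 after light. The summed CPM of the hydrophobin gene, alb-1 and cmp-1 lay between 20.2 and 24.2 in Δblr-2 darkness and between 19.7 and 24.5 after light, with all 3 genes above 5 CPM in every one of these libraries. The sum holds unlike changes: alb-1 had 8.76, 8.86 and 8.09 CPM in darkness and 6.28, 5.72 and 6.40 CPM after light, without overlap, and the hydrophobin gene had 7.02 ± 1.24 and 9.40 ± 1.68 CPM (SD, n = 3 each). In Δblr-1 the sum was 27.6, 18 and 45.6 CPM in darkness and 25.7, 16 and 35 CPM after light. Δenv-1 had 575, 20.3 and 713 CPM in darkness and 16.7, 13.8 and 36 CPM after light. In the WT the sum was 257, 57.1 and 492 CPM in darkness and 320, 25.8 and 450 CPM after light, with replicate 2 the lowest in both groups. WT light replicate 2 was also the lowest WT light library for 32 of the 39 genes, compared with 50% of the 7995 transcripts, and the part of culture stage in the WT levels was not tested. Of the 4 sulfate and serine genes listed, none met the rule. The sulfite reductase beta subunit gene (Id. 128510) came near the rule without meeting it, with 990, 900 and 930 CPM in Δblr-2 darkness and 456, 552 and 468 CPM after light, a ratio of 1.63. Its WT level was 770 ± 34.9 CPM in darkness and 699 ± 40.5 CPM after light (SD, n = 3 each).

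All 39 Ids matched the RefSeq gene table of the related strain P1 (assembly ASM2064779v1), which was used for the order of genes only. They were spread over 7 of 7 chromosomes, with between 2 and 8 on each, and no member was next to another. The median gene length there was 1723 bp, against 1818 bp for the matched transcripts at the same dark level. In 3 cases a pair of members was separated by 1 to 3 other genes, namely Id. 137467 and Id. 137475, Id. 35776 and Id. 300671, and Id. 295125 and Id. 295128. Between the last pair lie 3 genes with mean levels under 4 CPM in every group.

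The gene between Id. 137467 and Id. 137475 is Id. 131177, a glycoside hydrolase of family GH15 per the study's annotation, a family that holds enzymes releasing glucose from starch. In the WT it had 8.18, 10.2 and 8.65 CPM in darkness and 120, 114 and 114 CPM after light, and it also rose in Δenv-1, from 14 and 12.5 CPM to 188, 216 and 228 CPM (log2 fold change 3.93, SE 0.127, edgeR adjusted p = 1.97e-11). In Δblr-1 it had 10.8, 13.0 and 13.2 CPM and then 12.5, 8.29 and 10.01 CPM, with overlap and no call (edgeR adjusted p = 0.182). In Δblr-2 it had 13.8, 13.8 and 14.2 CPM in darkness and 7.74, 8.79 and 7.68 CPM after light. Id. 137467 and Id. 137475 were lower after light in Δblr-2 because the rule required it. The middle gene, which was not chosen, was lower too, with a ratio of 1.53 that is under the limit of the rule. In the WT the middle one rose and the outer ones overlapped. The next gene on the far side, Id. 86665, had 8.76, 9.04 and 12.6 CPM in Δblr-2 darkness and 6.87, 4.89 and 6.25 CPM after light, without overlap. On the other side Id. 319874 had 3.34, 7.29 and 5.86 CPM in darkness and 6.58, 6.38 and 5.54 CPM after light, and the groups overlapped. How many of all transcripts fell without overlap in Δblr-2 was not counted, so the falls of Id. 131177 and Id. 86665 have no background. The order was read from P1, and whether it is the same in IMI 206040 was not tested.

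**Figure D5:**
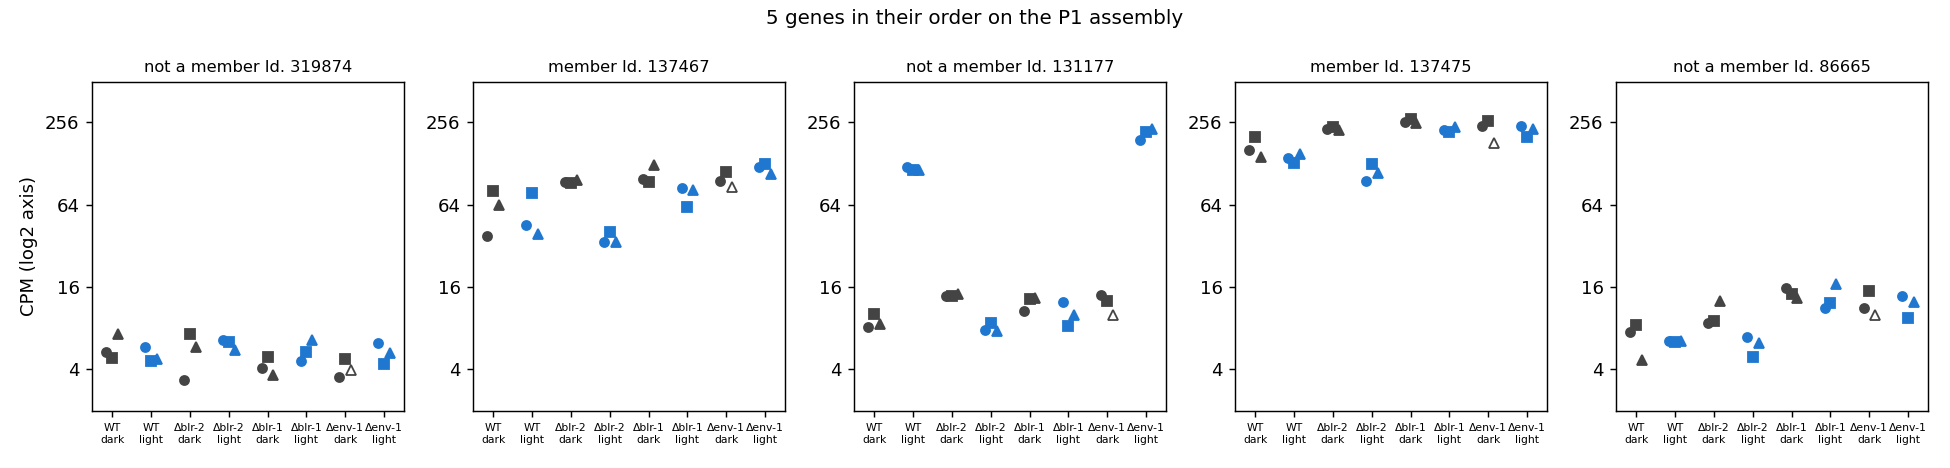
CPM of 5 genes in their order along the P1 assembly, in every library, on log2 axes with one common range. Symbols are as in the plot of 6 genes, with dark libraries grey and light libraries blue. Id. 131177 rises to between 114 and 228 CPM after light in the WT and Δenv-1 and stays under 15 CPM in Δblr-1 and Δblr-2. Its neighbours Id. 137467 and Id. 137475 have their lowest Δblr-2 values after light, as the rule requires.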

How the data were processed

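The authors used kallisto to assign reads to transcripts predicted for the v2 genome. Its estimated counts were deposited without normalization. FastQC, edgeR and limma are also named in the submitters' processing notes, with no versions. Of the values, 8.33% were not whole. The table gave 24 columns matched to samples by name, and 12 further columns were not used here. The members and lists were chosen with earlier results of these data known. Genes given by name are the 10 members with the largest ratio of the lowest Δblr-2 dark to the highest Δblr-2 light library, the 8 with the highest Δblr-2 dark mean, called members, genes at each limit of the rule, and reference genes of the light pathway, conidiation and sulfate assimilation. Others are marked as named after their values were seen.

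Counts were rounded and fitted with edgeR 4.0.16 (R 4.3.3), on the Δblr-1 and Δenv-1 libraries without Δenv-1 dark replicate 3, with filterByExpr at a minimum count of 10, TMM scaling, quasi-likelihood tests and Benjamini-Hochberg adjustment over 9378 genes. A light response was called when the adjusted p was no higher than 0.05 and the change reached 1 on the log2 scale, and a difference between strains by the adjusted p alone. DESeq2 1.42.0, the likelihood ratio test, RLE scaling, no filter or a minimum count of 30, replicate blocks, a fit of 23 libraries, Δenv-1 dark replicate 3 included and each library left out were alternatives. In a test on simulated data for the Δblr-1 light response over 9307 genes, 183 of 200 changed genes and 11 unchanged genes passed the adjusted p. All changes set there were larger than 2-fold. Smaller changes, such as those fitted for the 39 genes in Δblr-1, were not simulated, so the share found does not apply to them. Deviations of same-numbered dark and light samples from their group means correlated at 0.137, 0.236 and 0.116 in Δblr-1. In Δenv-1, with dark replicate 3 included, they correlated at 0.19, 0.0995 and 0.101. Samples of unlike number correlated at no more than -0.0112 in Δblr-1 and 0.0092 in Δenv-1. Without dark replicate 3, as in the fits, the same-numbered values in Δenv-1 were 0.147 and 0.11. Dark replicate 2 and light replicate 3 correlated at 0.0574 there. Deviations within a group cancel out, so the values for unlike numbers are not independent of those for like numbers. A pairing by number is not given by the labels and was read only from these correlations. The main fits did not use it, so their SEs and adjusted p are unpaired. With the replicate block, set in both strains, the median SE of the members in Δblr-1 was 0.091 instead of 0.123. No pair of replicates agreed within sampling noise. Transcripts whose counts were not whole in every library, 3 of the 39 members (Id. 86980, Id. 235832 and Id. 229295), share reads with others. No sequences or coordinates of the strain's genome were used here.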

Additional observations from a re-analysis of the deposited data

Results flagged for a closer look

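The light response of Id. 147452 differed between Δenv-1 and Δblr-1 by 0.54 on the log2 scale (SE 0.130, edgeR adjusted p = 0.0472), with a fall in Δblr-1 in which light and dark libraries did not overlap and no separation in Δenv-1. This difference did not pass with RLE scaling, in the fit of 23 libraries or without some single libraries. The groups compared had 3 libraries each, with 2 in Δenv-1 darkness, so for this list single libraries were not screened gene by gene as outliers within a group.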

How the results depend on the processing

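No member was called after light at the 2-fold limit in Δblr-1 or Δenv-1 under any alternative fit or with any one library left out, where the counts ranged from 0 to 0. Without the fold minimum they were 5 and 3. The number of members whose response differed between the mutants was 1, and it was 0 with RLE scaling and in the fit of 23 libraries, 3 with the likelihood ratio test, DESeq2 and the replicate block, and 0 to 1 with 1 library left out. In darkness 0 members differed, with 1 by DESeq2, 2 with Δenv-1 dark replicate 3 included, and 0 to 0 with 1 library left out. After light 4 differed, with 8 by the likelihood ratio test, 2 in the fit of 23 libraries and 2 to 8 with 1 library left out. The counts over all genes tested varied too. For the difference in response they were 207 in the main fit, 140 in the fit of 23 libraries and 232 with the replicate block. DESeq2 gave 252 there and the likelihood ratio test 340. In darkness they were 22 in the main fit, 82 by DESeq2 and 94 with Δenv-1 dark replicate 3 included. After light they were 972 in the main fit, 1143 by the likelihood ratio test and 780 in the fit of 23 libraries. The cause of these shifts was not tested. The replicate block also raised the count without a fold minimum in Δenv-1 to 5 and the members with an unadjusted p under 0.05 in darkness from 5 to 8, lowered the genes tested that were higher in Δenv-1 after light from 431 to 139, and ended the calls of Id. 302685 in Δenv-1 and of Id. 220011 after light. The median log2 fold change of the members stayed between -0.14 and -0.03 in Δblr-1 and between -0.05 and -0.02 in Δenv-1 with 1 library left out. In fits without a Δenv-1 dark library a lone library stands for that group and is assumed to vary like the others. The rule itself gave 37 genes with TMM scaling, 43 and 36 with 0 and 1 CPM added, 33 with WT libraries within 2 times of each other, and 37 to 100 with 1 library left out. Genes with few counts, such as Id. 302231 and Id. 86980, had SEs of 0.268 and 0.329 in Δblr-1, so a fall of the size seen in Δblr-2 is less well resolved for them.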
